A study of Mus musculus with 8 samples.

Results

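The classical monocytes of the periosteum were taken as the kept cells with at least 3 UMIs of Ly6c2, at least 1 of Ccr2 and at least 1 of Csf1r. Cells with 5 or more UMIs of C1qa, C1qb and C1qc together, 3 or more of Siglech, 10 or more of Elane, Prtn3 and Ctsg together, or any of Cd3e or Cd79a were left out. A UMI (unique molecular identifier) marks 1 captured RNA molecule. The rule found 386 monocytes among 12253 kept cells, namely 199 of 6029 cells on normal diet (ND) and 187 of 6224 on high-fat diet (HFD).

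The study compared long bone periosteum, the innervated connective tissue sheath of bone, of C57BL/6J male mice on either diet. HFD, with 60% of its calories from fat, was fed for 12 weeks from 4 weeks of age, and both groups were 16 weeks old at the end. Left femurs and tibias were digested with collagenase I and dispase II and the released cells were captured for droplet-based 3′ sequencing. The labels list 4 replicates on each diet, but 1 matrix was deposited per diet, with no map from cells to replicates. Each diet is therefore treated as 1 library without replicates, and no test between diets was possible. The exact 95% intervals below reflect counting error alone.

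Monocytes arise in bone marrow from committed myeloid progenitors, enter blood through the chemokine receptor CCR2, and can replace tissue macrophages or give rise to osteoclasts. In mice the classical, inflammatory type carries Ly6C on its surface, whereas the patrolling, non-classical type has little Ly6C and depends on the nuclear receptor Nr4a1. Both carry Csf1r, the receptor of CSF1, and depend on the lineage factor PU.1, the product of Spi1.

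The monocytes were deep cells. Their median depth was 11940 UMIs in ND (range 3426 to 32428) and 11532 in HFD (2506 to 50293), against 4610 and 4823.5 over all kept cells. The median monocyte had 2869 detected genes in ND and 2837 in HFD, and mitochondrial genes took a median of 1.07% and 1.13% of UMIs. The summed depth was 2610626 UMIs in ND and 2367541 in HFD, and levels below are UMIs per 1000000 of these sums (UPM). Across the libraries 15 cell barcodes were shared, of which 14 were kept and 0 were monocytes. No barcode outside the filter on detected genes and mitochondrial share met the rule.

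The label held against its markers. Ly6c2, which encodes the Ly6C antigen, had a median of 12 UMIs per monocyte in ND and 14 in HFD, and a summed level of 1193 and 1334 UPM. Ccr2, the receptor for CCL2, stood at 542 and 618, and Csf1r at 195 and 240. These 3 genes belong to the rule and are given as description. F13a1, the coagulation factor XIII A chain, and Ms4a4c were not used by it: F13a1 was detected in 193 of 199 ND and 178 of 187 HFD monocytes, and Ms4a4c in 176 and 176. After thinning every cell to 2000 UMIs, F13a1 was seen in 74.4% of ND and 70.1% of HFD monocytes against 0.681% and 0.638% of B cells, which should lack it. The B cells were shallower, with median depths of 3851 and 3821 UMIs, and without thinning 97.0% and 95.2% of monocytes had F13a1. Ly6c2 is not restricted to monocytes: at 2000 UMIs it was seen in 45.8% of ND and 52.2% of HFD T cells and in 2.52% and 2.48% of B cells.

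**Figure D1:**
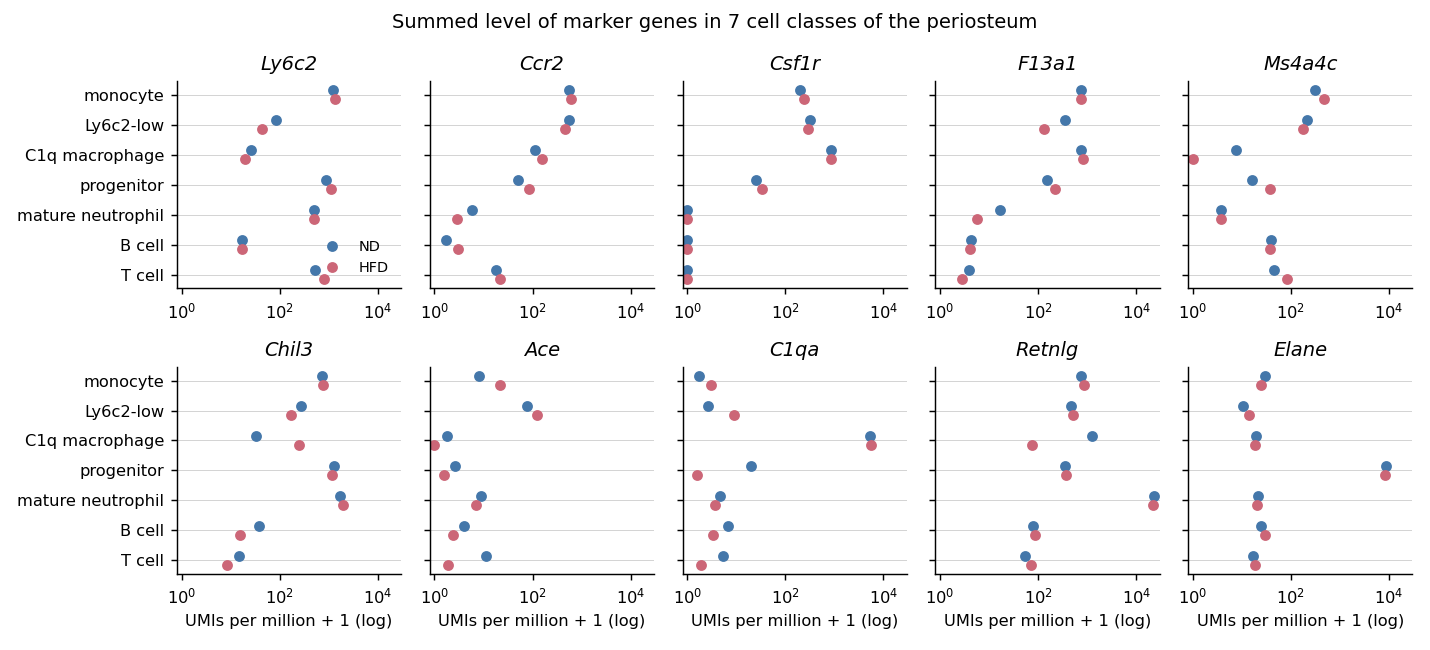
Summed levels of 10 marker genes (x axis, UPM plus 1, log scale) in 7 cell classes (rows) of the ND (blue) and HFD (red) library. Monocytes combine Ly6c2 at 1193 and 1334 with Ccr2 at 542 and 618, while C1qa, Retnlg and Elane peak in C1q macrophages, mature neutrophils and progenitors. The rules that set these classes used the same genes, so these levels are no support for the classes. Csf1r is 0 in neutrophils, B and T cells because those classes were set to lack it.

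Markers of other cells were present at different levels. T cell markers summed to 6 UMIs in all ND monocytes and 3 in HFD, platelet markers to 8 and 6, and NK cell markers to 14 and 13. Of 11 resident macrophage markers only Adgre1, at 48.3 and 52.8 UPM, passed 20 UMIs, and Timd4 was at 0 in both libraries. The rule itself set Cd3e to 0 and kept C1qa, C1qb and C1qc together under 5 UMIs per cell. Low levels of these genes were thus fixed in advance. Among 8 dendritic cell markers Cd209a led with 19.5 and 13.5 UPM, and Xcr1 and Fscn1 were at 0. The B cell list summed to 247 and 267 UPM and was seen in 91.5% and 92.0% of monocytes, led by Ighm at 209.5 and 211, with Cd79a at 0 by the rule. Neutrophil markers were seen in every monocyte, but the 5 highest cells held 75.1% of their UMIs in ND and 91.7% in HFD. Mesenchymal markers were seen in 62 ND and 95 HFD monocytes, and the 5 highest cells held 95.2% of their UMIs in ND and 15.4% in HFD. The 6 erythroid markers summed to 72.8 and 116 UPM and were seen in 56.3% and 68.4% of monocytes. The 7 granule protease and progenitor markers, of which the rule limits Elane, Prtn3 and Ctsg, summed to 121 UPM in ND and 89.5 in HFD. Prtn3 led them at 65.9 and 43.5.

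Cells just inside and just outside the Ly6c2 threshold were few and had like levels of F13a1 but not of every marker. The 13 ND cells with 3 Ly6c2 UMIs had F13a1 at 486 UPM and Ccr2 at 779, and the 13 ND cells with 2 had 526 and 653. In HFD the 8 cells with 3 UMIs had F13a1 at 405 and the 7 cells with 2 had 406, but Ms4a4c was at 584 inside and 203 outside and Csf1r at 390 and 234. In ND Chil3 was at 247 inside and 372 outside and Treml4, a gene of patrolling monocytes, at 15.4 and 90.7, the latter on 2 and 10 UMIs. Cells that met every other clause but had no Ly6c2 UMI, 31 in ND and 38 in HFD, differed more: F13a1 was 154 and 27.9, and Ace, a gene of patrolling monocytes, was 113 and 154 UPM against 7.28 and 21.1 in the monocytes.

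Exclusions mattered for the number of members. The 3 positive clauses alone were met by 271 ND and 263 HFD cells. The granule protease clause failed in 50 and 55 of these, Cd79a in 27 and 20, Siglech in 1 and 5, Cd3e in 2 and 2, and the C1q clause in 1 and 0.

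Apart from the rule genes, the genes that stood farthest above the other kept cells included membrane proteins, coagulation factors and intracellular proteins. Ms4a8a, a member of the MS4A family of membrane proteins, was 4.52 above the other cells on the log2 scale in ND and 4.94 in HFD. Ms4a4c stood 3.81 and 4.25 above them, and Ms4a6c 3.64 and 4.00. The C-type lectins Clec4a3 (3.63 and 4.01) and Clec4a1 (3.46 and 3.85) and the scavenger receptor Msr1 (3.32 and 4.23) followed. Next were Ppfia4 (3.27 and 3.38), coagulation factor X, F10 (3.23 and 3.70), Mcub (3.22 and 3.26), F13a1 (3.21 and 3.45) and Arhgef10l (3.16 and 3.22). Members and these contrasts come from the same cells, so the values are a description. Several were shared with neighbors in the monocyte lineage: F13a1 was 739 UPM in ND C1q macrophages against 735 in the monocytes, and Clec4a3 was 291 in ND Ly6c2-low cells against 201. Ms4a4c, in contrast, was 6.55 in the ND macrophages and 315 in the monocytes.

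Sequence upstream of Ms4a4c and F13a1 is shown because both genes are markers outside the rule and carry GAGGAA, a core that PU.1 is known to bind. The 250 bases before a start site of each were read from the RefSeq promoter table of build GRCm38.p6, 5′ to 3′ on the strand of the gene, with matches to GAGGAA or its reverse complement in capitals.
Ms4a4c, chr19:11407411-11407660, plus strand: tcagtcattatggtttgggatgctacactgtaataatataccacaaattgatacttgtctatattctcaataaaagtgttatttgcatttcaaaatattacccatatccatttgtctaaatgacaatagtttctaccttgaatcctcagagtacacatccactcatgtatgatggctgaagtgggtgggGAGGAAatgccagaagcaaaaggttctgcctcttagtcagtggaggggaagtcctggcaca
F13a1, chr13:37050245-37050494, minus strand: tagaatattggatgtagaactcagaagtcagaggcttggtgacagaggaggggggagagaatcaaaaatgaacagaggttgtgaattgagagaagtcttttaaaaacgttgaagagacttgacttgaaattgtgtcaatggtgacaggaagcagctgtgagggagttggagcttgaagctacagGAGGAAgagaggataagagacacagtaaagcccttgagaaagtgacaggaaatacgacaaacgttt
The match lay 61 bases before the start of Ms4a4c and 66 before that of F13a1, which has 2 promoters in the table, the other without a match. Of the 12 leading genes 11 had an entry, and 6 of these (54.5%) held GAGGAA on either strand, compared with 25.9% of 27025 genes; by promoter it was 6 of 15 (40%) against 23.3% of 32851. The match is a description of letters and not a site, and Ccr2, Ms4a8a, Ms4a6c, F10 and Arhgef10l had none in this window. Ly6c2 has a close paralog, Ly6c1. Between 9.003% (Ly6c2-203) and 21.9% (Ly6c2-204) of 90-base windows in the last 400 bases of Ly6c2 transcripts also occur in a Ly6c1 transcript. Some reads could thus be assigned to either gene. At 2000 UMIs Ly6c1 was seen in 1.01% of ND and 0 of 187 HFD monocytes, and without thinning in 2.01% and 3.74%.

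The monocytes carried the equipment of a circulating phagocyte. Lyz2, lysozyme, was the most abundant gene of the classical monocyte list at 20271 UPM in ND and 21741 in HFD. The lipopolysaccharide co-receptor Cd14 stood at 1303 and 1506, the Fc receptor chain Fcer1g at 2638 and 2925, and the adaptor Tyrobp at 3792 and 4259. Growth factor receptors included Csf2ra (317 and 275) and Csf2rb (91.2 and 112) for GM-CSF, and both chains of the interferon-γ receptor, Ifngr1 (275 and 306) and Ifngr2 (98.4 and 106). Migration genes included the PSGL-1 gene Selplg (258 and 248) and the integrin Itga4 (118 and 160). Among lineage transcription factors Cebpb (2863 and 2910), Klf4 (1156 and 815) and Spi1 (372 and 432) were abundant, while Irf8 was at 157 and 125. The osteoclast genes Acp5 (9.19 and 7.18) and Tnfrsf11a, the receptor of RANKL (6.13 and 5.91), were near the floor of detection, and Nfatc1 was at 16.9 and 25.8.

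The share of monocytes differed by less than its counting error between diets. It was 3.30% of kept ND cells (2.86 to 3.78, exact Clopper-Pearson interval) and 3.00% of kept HFD cells (2.59 to 3.46). Ly6c2-low cells, which met all clauses except Ly6c2, made up 1.14% and 0.916%, and C1q macrophages 1.64% and 1.49%.

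Within the monocytes, the HFD library had higher interferon-stimulated genes and lower AP-1, early response, heat shock and chemokine genes. Of 4856 genes with at least 100 UMIs over both libraries, 134 (2.76%) were at least 1.5-fold higher in HFD and 188 (3.87%) at least 1.5-fold lower, 6.63% in either direction, and the median log2 ratio was 0.03. These counts compare 2 libraries and pass a fold limit, not a test. With 0.5 UMIs added to each sum, ratios are given on the log2 scale as HFD over ND with their counting interval. Lists were described over members with at least 20 UMIs, for which the median of all 8682 genes was 0.01.

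**Figure D2:**
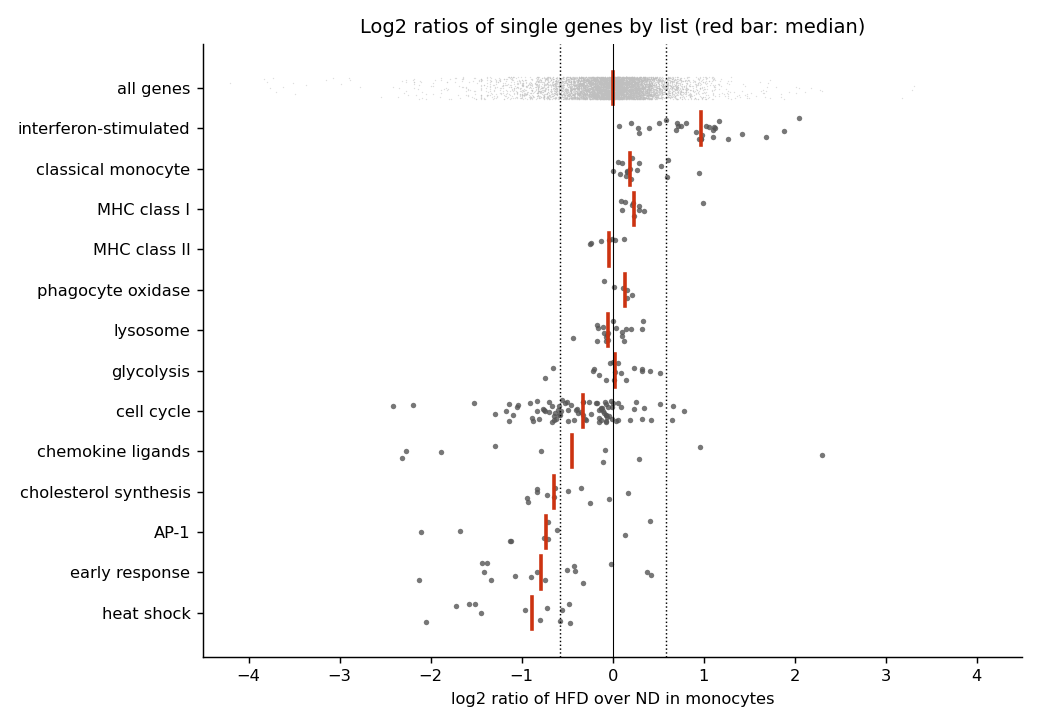
Log2 ratio of HFD over ND (x axis) for each gene with at least 20 UMIs in all genes (gray) and in 13 lists (dark points), with list medians as red bars and 1.5-fold as dotted lines. The interferon-stimulated list lies wholly to the right with a median of 0.97, and the heat shock list wholly to the left with −0.88, while the phagocyte oxidase, lysosome and glycolysis lists surround 0.

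Interferon-stimulated genes, which encode antiviral effectors and their regulators, formed the list with the highest median. All 29 members with at least 20 UMIs had a positive ratio, with a median of 0.97, and 14 of the 20 members with 100 UMIs were at least 1.5-fold higher while 0 were lower. Ifit3, a translation inhibitor of the IFIT family, had the highest ratio of the monocytes among genes with at least 200 UMIs. It was at 19.9 UPM in ND and 73.9 in HFD, a log2 ratio of 1.88 (1.44 to 2.37). Rsad2, viperin, was at 27.2 and 87.4 (1.68, interval 1.29 to 2.09). Both sat in few cells: Ifit3 was found in 10 ND and 20 HFD monocytes, and its 3 highest cells held 78.8% and 69.7% of its UMIs. Leaving out the 3 highest cells of each library left the Ifit3 ratio at 2.36 and that of Rsad2 at 1.70.

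Most other members of the list were spread over more monocytes. Irf7, the regulator that amplifies type I interferon, was at 98.4 UPM in 107 ND cells and at 200.2 in 134 HFD cells (log2 ratio 1.02, 0.80 to 1.25). Trim30a was at 51.3 in 84 cells and 107 in 107 cells (1.06, 0.75 to 1.37). Isg15, a ubiquitin-like modifier, was at 106 and 209.5 (0.98, 0.76 to 1.19) with 51.1% and 33.5% of its UMIs in its 3 highest cells, Zbp1, a sensor of nucleic acids, at 65.5 and 114 (0.80), Ifi27l2a at 1092 and 1779 (0.70, 0.64 to 0.77), and Xaf1 at 41.8 and 78.6 (0.91). Ifitm3, the most abundant member, differed least of the abundant ones, at 3878 and 4750 (0.29, 0.25 to 0.33). The receptor genes Ifnar1 and Ifnar2 had ratios of −0.11 and −0.04. MHC class I genes, also interferon-responsive, had 10 of 10 positive ratios and a median of 0.23, and 0 of the 9 with 100 UMIs passed 1.5-fold. Nlrc5, with 7 and 13 UMIs, had a ratio of 0.99 (−0.40 to 2.60).

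In single cells the interferon list was higher over most of its range in HFD. Thinned to 2000 UMIs, a monocyte had a median of 11 list UMIs in ND (quartiles 7 and 18) and 16 in HFD (9.5 and 23), with maxima of 62 and 94. Cells with 20 or more were 39 of 199 in ND (19.6%, 14.3 to 25.8) and 71 of 187 in HFD (38.0%, 31.0 to 45.3), a limit set after the values were seen, with 37 and 44 cells within 3 UMIs of it. The same share was 10.4% and 10.7% in Ly6c2-low cells, 1.86% and 3.08% in mature neutrophils, 2.15% and 1.10% in C1q macrophages and 0.272% and 0.213% in B cells. Over genes, the list median was between −0.23 (Ly6c2-low) and 0.30 (T cells) in the other 6 classes, compared with 0.97 here. Sums, which weight abundant genes, gave another order of classes, with a larger ratio in progenitors than in monocytes: the list summed to 6041 UPM in ND and 8416 in HFD monocytes (0.48, 0.45 to 0.51), to 428 and 683 in progenitors, 893 and 1108 in B cells, and 6207 and 4397 in Ly6c2-low cells. The difference between classes was not tested. Of 6 markers of plasmacytoid dendritic cells, which are known for making interferon, the rule limits Siglech. Klk1 and Cox6a2 were at 0 in the monocytes of both libraries. The list summed to 60.5 UPM in ND and 85.3 in HFD, led by Tcf4 at 54.0 and 71.4. Its part in the result was not tested.

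Upstream sequences of 3 interferon-stimulated genes are shown for a motif chosen after these ratios were known, GAAA-NN-GAAA with N any base, an interferon-stimulated response element core. The 250 bases before each start site were read in the same way, with every match on either strand in capitals, and adjoining or overlapping matches run together.
Ifit3, chr19:34583279-34583528, plus strand: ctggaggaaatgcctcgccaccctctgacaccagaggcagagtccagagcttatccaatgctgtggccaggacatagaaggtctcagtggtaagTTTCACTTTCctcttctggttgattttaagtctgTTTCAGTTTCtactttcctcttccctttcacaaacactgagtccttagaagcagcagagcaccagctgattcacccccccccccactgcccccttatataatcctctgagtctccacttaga
Rsad2, chr12:26456453-26456702, minus strand: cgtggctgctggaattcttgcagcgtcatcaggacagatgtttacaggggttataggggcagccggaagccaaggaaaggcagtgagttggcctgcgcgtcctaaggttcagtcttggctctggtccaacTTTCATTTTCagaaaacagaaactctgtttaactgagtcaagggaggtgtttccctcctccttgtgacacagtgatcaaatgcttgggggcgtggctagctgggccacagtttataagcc
Isg15, chr4:156200819-156201068, minus strand: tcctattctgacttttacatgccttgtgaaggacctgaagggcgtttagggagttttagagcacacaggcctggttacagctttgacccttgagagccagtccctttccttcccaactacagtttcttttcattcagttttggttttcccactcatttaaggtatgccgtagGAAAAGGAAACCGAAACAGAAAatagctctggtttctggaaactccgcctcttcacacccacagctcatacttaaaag
Ifit3 had 2 matches, both on the reverse strand, 156 and 122 bases before its start, Rsad2 had 1 on the reverse strand at 120, and Isg15 had 3 on the forward strand between 78 and 66 that overlap each other. On the reverse strand the motif reads TTTC-NN-TTTC. Of the 31 listed genes 23 had an entry, and 13 of these (56.5%) held the motif, compared with 3.46% of all genes. Among the 11 entries of the 14 genes past 1.5-fold it was in 6, and the 12 leading genes of the monocytes held it in 0. Irf7, Xaf1, Oasl1, Oasl2 and Ifit2 had no match in this window.

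The AP-1, early response and heat shock genes were lower in HFD. The AP-1 list, the Fos and Jun family of transcription factors, had a median log2 ratio of −0.73 with 6 of 8 genes at least 1.5-fold lower and 0 higher. Jun was at 2292 UPM in ND and 533 in HFD (−2.10, interval −2.19 to −2.02), Fos at 1967 and 615 (−1.68), Atf3 at 1634 and 755 (−1.11), Fosb at 292 and 134 (−1.12) and Jund at 2637 and 1567 (−0.75). Fosl2, at 258 and 284, had a ratio of 0.14.

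Early response genes other than AP-1 had a median of −0.79, with 8 of 14 at least 1.5-fold lower and 0 higher. Egr1 was at 189 and 43.1 UPM (−2.13, −2.46 to −1.82), Klf2 at 1705 and 639 (−1.42), Zfp36, which destabilizes cytokine messages, at 847 and 314 (−1.43), Dusp1, a MAP kinase phosphatase, at 559 and 215 (−1.38) and Btg2 at 639 and 303 (−1.07). The orphan nuclear receptors differed from the rest of this list: Nr4a1 was at 568 and 558 (−0.02, −0.13 to 0.08), Nr4a2 at 212 and 275 (0.38) and Nr4a3 at 45.6 and 61.2 (0.43). Heat shock chaperones had 12 of 12 negative ratios, a median of −0.88 and 7 of 11 at least 1.5-fold lower. Hspa1a was at 2174 and 660 (−1.72), Hspa1b at 1519 and 365 (−2.06), Hsp90aa1 at 1038 and 362 (−1.52) and Dnajb1 at 237 and 79.4 (−1.58), while Hspa8 (3047 and 2066) had a ratio of −0.56 and Hsp90ab1 (1672 and 1200) one of −0.48. Hspa1a and Hspa1b are near-identical copies, so the split of reads between them is uncertain.

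The UMIs of these lists were concentrated in a subset of cells. Thinned to 2000 UMIs, the median monocyte had 12 AP-1 UMIs in ND and 7 in HFD, but the upper quartile was 28.5 against 11. Cells with 20 or more AP-1 UMIs, a limit set after the per-cell values were seen, were 65 of 199 in ND (32.7%, 26.2 to 39.7) and 15 of 187 in HFD (8.02%, 4.56 to 12.9), and 9 and 3 cells lay within 3 UMIs of the limit. For heat shock genes the counts were 59 (29.6%) and 20 (10.7%). The same cells carried both: 52 ND cells were high in AP-1 and heat shock genes, 80.0% of the AP-1-high and 88.1% of the heat shock-high cells, and in HFD 14 cells were, 93.3% and 70.0%. The AP-1-high cells had a median depth of 12872 UMIs in ND against 11540.5 in the other monocytes, and of 11183 against 11646.5 in HFD.

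The AP-1-high cells held 90.7% of Jun, 95.9% of Hspa1a and 85.9% of Klf2 UMIs in ND, and 51.5%, 73.2% and 56.7% in HFD, where they were fewer. Among the remaining monocytes Jun was at 325 UPM in ND and 278 in HFD (−0.22), Fos at 300 and 323 (0.11), Egr1 at 29.9 and 32.3 (0.11, −0.43 to 0.66), Klf2 at 367 and 298 (−0.30) and Hspa1a at 135 and 190 (0.49). Because the limit sets the same AP-1 ceiling in both libraries and the other lists correlate with AP-1, values without these cells are a description and do not show that the rest of the monocytes are alike. Identity genes were present in the AP-1-high cells: Lyz2 was at 20866 UPM in those of ND and 19957 in the other ND cells, F13a1 at 758 and 723, Ly6c2 at 1013 and 1288, and Ccr2 at 740 and 437. In HFD Lyz2 was at 26037 in the AP-1-high and 21413 in the other cells, F13a1 at 530 and 750, Ly6c2 at 1198 and 1345, and Ccr2 at 1019 and 588.

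**Figure D3:**
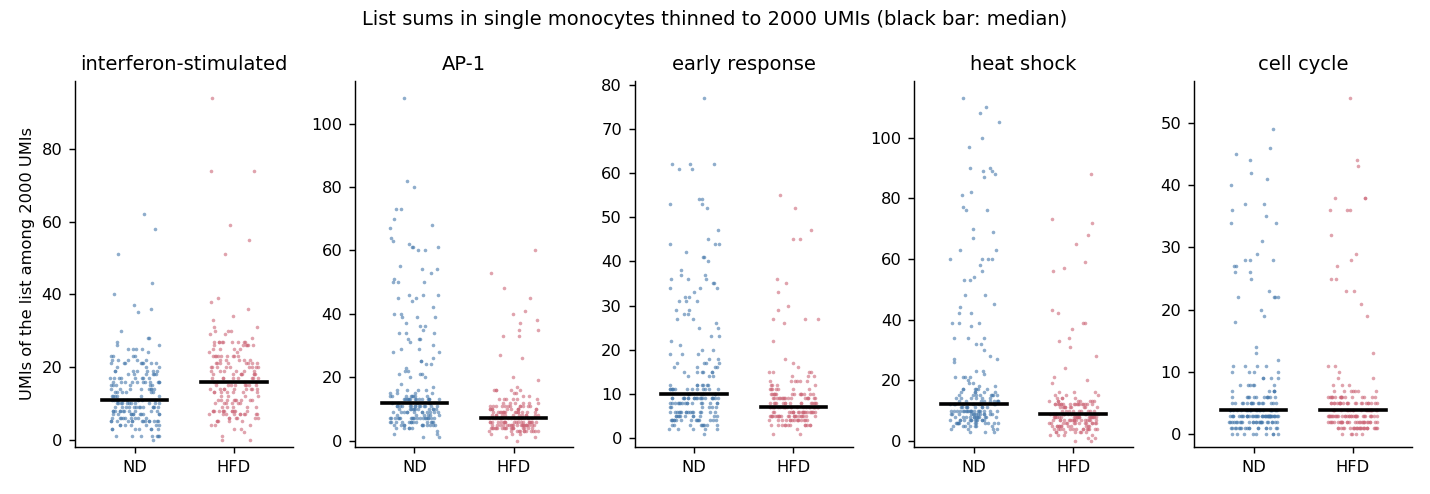
UMIs of 5 gene lists (y axis) in each monocyte after thinning to 2000 UMIs, with ND in blue, HFD in red, 1 point per cell and the median as a black bar. AP-1, early response and heat shock sums form a dense low band and a spread of high cells that is fuller in ND, where 65 of 199 cells reach 20 AP-1 UMIs against 15 of 187 in HFD; the interferon-stimulated band is shifted upward in HFD.

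Other classes had AP-1 differences of the same direction. The share of cells with 20 or more AP-1 UMIs was 43.3% and 26.8% in Ly6c2-low cells, 40.3% and 23.7% in B cells, 20.1% and 8.21% in T cells and 18.4% and 7.18% in mature neutrophils, each with the ND value first. C1q macrophages had 41.9% and 39.6%, which differed by less than their counting error. List medians over genes were between −0.82 (mature neutrophils) and −0.40 (T cells) for AP-1 in B cells, T cells, progenitors and neutrophils, −0.86 in Ly6c2-low cells, and 0.03 in the macrophages. The differences between classes were not tested.

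**Figure D4:**
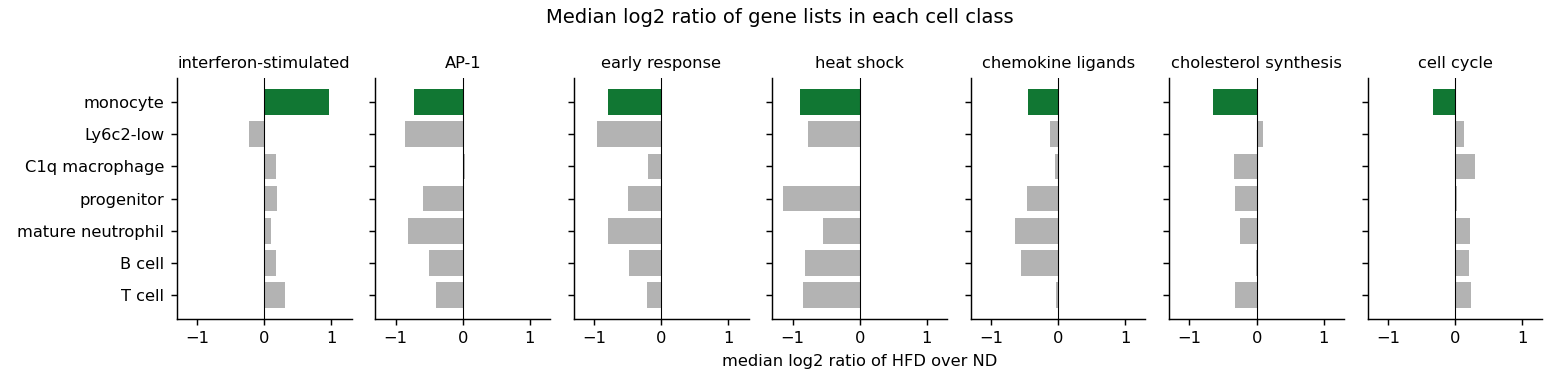
Median log2 ratio of HFD over ND (x axis) of 7 gene lists in 7 cell classes (rows), with monocytes in green. The interferon-stimulated median is 0.97 in monocytes and at most 0.30 elsewhere, the heat shock median is negative in all classes but C1q macrophages (0.02), and the cell cycle median is negative in monocytes alone (−0.33).

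Chemokine ligands, by which monocytes recruit other leukocytes, had 5 of 7 genes at least 1.5-fold lower in HFD, 0 higher and a median of −0.45 over 10 genes. Ccl4 was at 603 UPM in ND and 121 in HFD (−2.32, −2.51 to −2.14), Ccl3 at 562 and 116 (−2.28, −2.47 to −2.09) and Ccl2, the ligand of CCR2, at 548 and 148 (−1.88, −2.06 to −1.72). Of the 10 genes 3 had a positive ratio. Ccl7, another ligand of CCR2, had the highest, 2.30 (1.18 to 3.799) on 7 and 33 UMIs, and 0.67 without its 3 highest cells in each library. The abundant chemokines Ccl6 and Ccl9 differed less: Ccl6 was at 1305 and 1231 (−0.08) and Ccl9 at 298 and 363 (0.28). Of ND UMIs, 89.4% of Ccl3, 86.0% of Ccl4 and 87.5% of Ccl2 lay in the AP-1-high cells, and of HFD UMIs 38.0%, 45.1% and 55.6%. Without those cells the ratios were −0.24 (−0.56 to 0.08) for Ccl3, −0.86 (−1.16 to −0.56) for Ccl4 and −0.56 (−0.88 to −0.25) for Ccl2. Cxcl10, an interferon-induced chemokine, was at 28.3 and 11.4 (−1.297, −2.01 to −0.66), opposite in sign to the interferon-stimulated list, with 77.0% and 81.5% of its UMIs in 3 cells. Cxcl2 had a ratio of −0.78, which was −0.16 without the 3 highest cells of each library. Among cytokines Osm was at 89.6 and 43.1 (−1.05), Tnfsf9 at 41.8 and 13.1 (−1.66), Il1b at 204 and 193 (−0.07) and Tgfb1 at 248 and 277 (0.16) and Il18 at 12.3 and 27.5 (1.15, 0.53 to 1.82) on 97 UMIs in all. Tnf had a ratio of −0.48.

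Id1 and Rgs1 were also lower in HFD. Id1, an inhibitor of helix-loop-helix factors, was at 87.0 UPM in 57 ND cells and 16.9 in 22 HFD cells (−2.35, −2.89 to −1.87), and Rgs1, a regulator of G protein signaling, at 173 and 40.1 (−2.10). The AP-1-high cells held 81.5% of Id1 and 84.9% of Rgs1 in ND but 12.5% and 18.9% in HFD, and without them the ratios were −0.62 (−1.32 to 0.05) and −0.19 (−0.68 to 0.31).

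Genes higher in HFD monocytes outside the interferon list included Pla2g7 and Vcan. Pla2g7, the lipoprotein-associated phospholipase that hydrolyzes platelet-activating factor, was at 66.3 UPM in 76 ND cells and 204 in 112 HFD cells, a log2 ratio of 1.62 (1.37 to 1.88), and 1.72 without the 3 highest cells of each library. At 2000 UMIs it was seen in 15.1% of ND and 27.3% of HFD monocytes, against 0.477% and 0.284% of B cells. In C1q macrophages it was at 37.6 and 76.6 UPM (1.02). It was also seen in 26.9% and 33.9% of Ly6c2-low cells and in 36.3% and 33.4% of mature neutrophils; unthinned, the monocyte shares were 38.2% and 59.9%. Without the monocytes that carried neutrophil RNA, described further on, its ratio was 1.58. The proteoglycan versican, Vcan, was at 55.5 and 107 (0.94, 0.64 to 1.25), and Mtus1 at 34.5 and 64.6 (0.90). Il4ra, the receptor chain for interleukins 4 and 13, was at 15.3 and 34.6 (1.17, 0.61 to 1.76) and the high-affinity IgG receptor Fcgr1 at 21.5 and 44.8 (1.06, 0.58 to 1.56).

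Classical monocyte genes were near the same level or slightly higher in HFD. Of 16 genes in the list, 3 were at least 1.5-fold higher in HFD and 0 lower, against 2.76% and 3.87% of all genes. The list median was 0.19. The 3 were Vcan, Ms4a4c (315 and 480, 0.61) and the matricellular protein thrombospondin 1, Thbs1 (624 and 944, 0.60). Plac8 was at 1489 and 2156 (0.53), F13a1 at 735 and 735, Fn1 at 1032 and 1078 and Chil3 at 729 and 770. In the non-classical list 9 of 11 genes had a positive ratio, with a median of 0.28 and a summed level of 929 and 959 (0.05, −0.04 to 0.13), and 0 of 6 genes with 100 UMIs passed 1.5-fold in either direction. Cx3cr1 was at 117 and 90.4 (−0.37, −0.63 to −0.12). Ace, on 69 UMIs in all, was at 7.28 and 21.1 (1.51, 0.75 to 2.38), Treml4 had 9 and 23 UMIs (1.45, 0.33 to 2.79) and Fcgr4 12 and 23 (1.05, 0.01 to 2.22).

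Further functional groups, listed here, had 0 or 1 gene past 1.5-fold, against 6.63% of all genes. Such counts are no result about these groups. The 1 of 5 among chemoattractant receptors is above that share but rests on 1 gene. None of the 13 adhesion genes, 6 phagocyte oxidase genes, 20 lysosome genes, 4 clock genes or 9 MHC class I genes with 100 UMIs passed 1.5-fold, and list medians were 0.23, 0.13, −0.05, −0.12 and 0.23. The most abundant adhesion gene Emb was at 443 and 514 UPM, the hyaluronan receptor Cd44 at 341 and 443 and the integrin Itgam at 156 and 209.9. The oxidase subunit Cyba was at 2175 and 2418 and the lysosomal Psap at 2619 and 2518. Pattern recognition genes had a median of 0.09 with 1 of 17 higher, Clec4n, the dectin-2 gene (29.1 and 46.0, 0.66), and chemoattractant receptors 1 of 5, the complement receptor C5ar1 (45.6 and 68.8, 0.59), while Cxcr4 was at 272 and 214 (−0.35). Lineage transcription factors had a median of −0.20 with 1 of 12 lower, Id2 (322 and 190.5, −0.76).

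Sterol genes were mostly lower in HFD. In cholesterol synthesis and uptake 11 of 12 genes had a negative ratio, with a median of −0.64, and 3 of 8 were at least 1.5-fold lower, namely Srebf2, the sterol-sensing transcription factor (42.9 and 27.5, −0.64), Cyp51 (37.2 and 23.7, −0.65) and Idi1 (28.3 and 14.8, −0.93). Over all genes 2.76% were at least 1.5-fold higher and 3.87% lower. Of 17 lipid handling genes, 2 were higher and 1 lower, too few to be a result about the group. Lipoprotein lipase, Lpl, was at 50.6 and 24.5 (−1.04, −1.52 to −0.59), Lpcat2 at 21.5 and 38.0 (0.82) and Ppard at 15.3 and 26.2 (0.77). Apoe was at 982 and 819 (−0.26) and the lipid droplet protein gene Plin2 at 474 and 445 (−0.09). Glucocorticoid response genes had 3 of 8 at least 1.5-fold lower and a median of −0.43, led by Dusp1, Cebpd (188 and 80.3, −1.22) and Tsc22d3 (176 and 108, −0.70), while Fkbp5 rested on 36 UMIs.

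Cell cycle genes were lower in monocytes on HFD. Of 47 genes with 100 UMIs, 12 were at least 1.5-fold lower and 0 higher, and 73 of 88 with 20 UMIs had a negative ratio, with a median of −0.33. Rrm2, a subunit of ribonucleotide reductase, was at 66.7 UPM in 25 ND cells and 14.4 in 17 HFD cells (−2.20, −2.79 to −1.68), Tyms at 47.5 and 22.8 (−1.05) and Pcna at 157 and 84.9 (−0.89), whereas Mki67 (112 and 113, 0.01) and Top2a (111 and 105, −0.08) did not differ beyond counting error. Cycling cells, with a UMI of at least 2 of Mki67, Top2a, Birc5, Ube2c, Cdk1, Ccna2 and Tpx2 at 2000 UMIs, were 26 of 199 in ND (13.1%, 8.72 to 18.6) and 17 of 187 in HFD (9.09%, 5.39 to 14.2), or 23.1% and 15.0% without thinning. These intervals overlap. The progenitor markers moved in the same direction, at 121 and 89.5 UPM in sum, and with the granule protease limit set to 3 UMIs in place of 10 the cell cycle median was −0.06; their part in the result was otherwise not tested. The same share was 47.9% and 47.5% in progenitors, 5.99% and 6.87% in B cells and 1.12% and 1.49% in T cells.

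The cycling monocytes were deeper and differed from the others in some mature genes. Their median depth was 21660.5 UMIs in ND and 20798 in HFD. Relative to the other monocytes, Ccr2 was lower in them (315 against 604 UPM in ND, 368 against 667 in HFD), as was Plac8 (844 against 1666, and 1006 against 2380), while F13a1 was 780 against 722 and 672 against 747, Ly6c2 1535 against 1100 and 1315 against 1338, and Chil3 645 against 752 and 890 against 747. One HFD cycling cell carried neutrophil granule RNA: it had 3236 of the 3255 Camp UMIs of the 17 HFD cycling cells, and in the ND cycling cells Camp was at 103 UPM. The part of this cell in the other values was not tested. Of the progenitor granule genes, whose sum the rule limits, Prtn3 was at 119 in them against 51.2 in the other monocytes in ND and at 88.2 against 34.8 in HFD, Ctsg at 28.5 against 8.78 and 31.1 against 6.56, and Elane at 41.0 against 25.4 and 28.5 against 22.2. Mpo had 2 and 1 UMIs in them. Across monocytes, the cell cycle sum correlated with the classical monocyte sum at a Spearman rho of −0.32 in ND (199 cells) and −0.31 in HFD (187 cells), and with the interferon-stimulated sum at −0.35 and −0.30. All sums come from the same 2000 UMIs of each cell.

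A small group carried MHC class II, which presents peptides to CD4 T cells. At 2000 UMIs, 9 ND (4.52%, 2.09 to 8.41) and 9 HFD monocytes (4.81%, 2.22 to 8.94) had 3 or more UMIs of H2-Aa, H2-Ab1 and H2-Eb1 together (unthinned 9.55% and 11.2%). So did 29.9% and 41.1% of Ly6c2-low cells, 58.9% and 53.4% of B cells and 0 of 179 and 0 of 134 T cells. In the MHC class II monocytes Cd74 was at 14196 UPM in ND and 11745 in HFD and H2-Aa, which chose them, at 3564 and 2922. Chil3 was at 31.0 and 44.1 in them, against 729 and 770 over all monocytes, while Ccr2 (713 and 430) and F13a1 (568 and 397) were present and Plac8 was at 2252 and 2448. The dendritic cell genes Flt3 (2 and 1 UMIs) and Cd209a (0 and 0 UMIs, which allows up to 31.0 and 33.1 UPM) were too few in these cells to be set against the other monocytes. Over all monocytes the MHC class II list had a median of −0.04, with 0 of 6 genes past 1.5-fold in either direction.

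Some of the largest ratios rested on single cells. Sparc, Col1a1 and Col1a2, matrix genes of osteoblasts and fibroblasts, had log2 ratios of −4.21, −3.79 and −3.63, but the 3 ND monocytes highest in each gene held 96.6%, 97.3% and 98.5% of their ND UMIs. The mesenchymal marker list summed to 536 UPM in ND and 60.4 in HFD, with all 8 markers detected in both libraries and Sparc the most abundant in ND. Just 2 ND monocytes with 5 or more UMIs of this list held 94.6% of it, and without such cells in either library Sparc had a ratio of 0.38, Col1a1 of 1.01 and the joint lubricant gene Prg4 of 1.92. The neutrophil marker list summed to 10965 and 19790 UPM, with all 11 markers detected and S100a9 leading. In each library 6 monocytes with at least 5% of their UMIs in this list held 81.9% (ND) and 93.5% (HFD) of it. The granule genes Ngp (712 and 2318, 1.70) and Camp (685 and 2224, 1.70) had ratios of 0.37 and 0.38 without these cells, Ltf (160 and 392, 1.29) one of −0.28, and the list median turned from 0.79 to −0.48. Whether such cells are doublets was not tested; Scrublet called 0 monocytes as doublets, but it marked fewer than 0.5% of kept cells and cannot be taken to have worked.

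**Figure D5:**
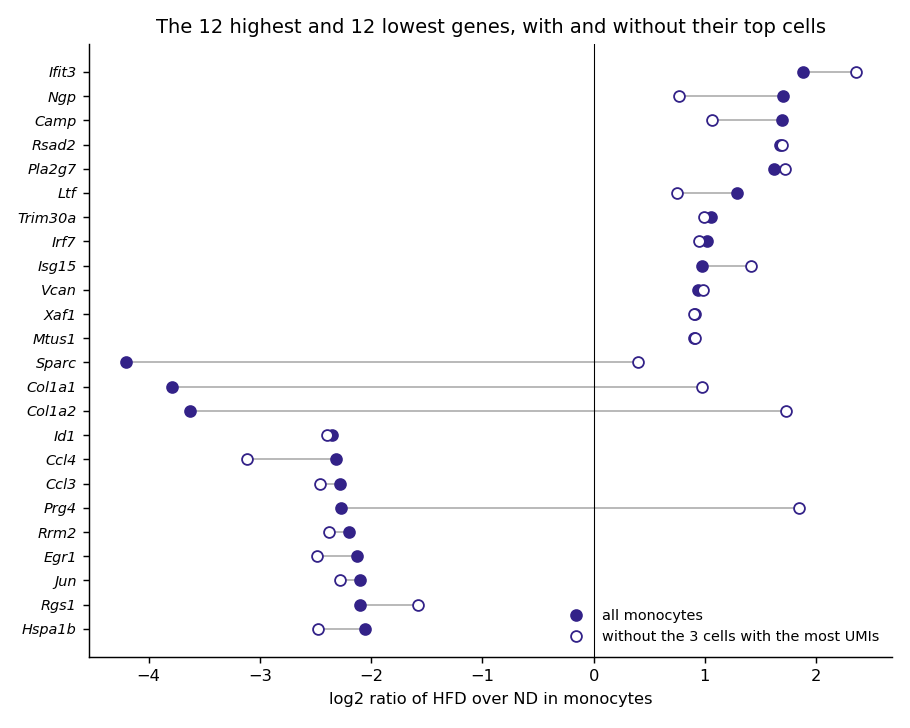
Log2 ratio of HFD over ND (x axis) for the 12 highest and 12 lowest genes with at least 200 UMIs (rows), over all monocytes (filled) and without the 3 monocytes of each library with the most UMIs of that gene (open). Sparc, Col1a1, Col1a2 and Prg4 cross 0, the neutrophil granule genes Ngp, Camp and Ltf move toward 0, and the interferon-stimulated, chemokine and early response genes keep their side.

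The most variable genes came from the same groups. At 2000 UMIs the median Fano factor, the variance over the mean, was 1.06 in ND and 1.05 in HFD over 3066 genes, near the value of 1 that counting alone gives. The highest were S100a9 (210 and 159), S100a8 (137 and 170), Ngp (62.6 and 78.8), Camp, Retnlg, Cd74 (20.8 and 19.2), Hspa1a (19.0 and 19.5), Lcn2, Ltf and Klf2 (9.83 and 9.57). AP-1 and early response sums correlated across monocytes at a rho of 0.72 in ND and 0.39 in HFD, and AP-1 and heat shock sums at 0.65 and 0.38, over 199 and 187 cells.

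Receptors for ligands that nerves can release were mostly at the floor. Of 24 such receptor genes 6 had at least 20 UMIs. Ramp1, a subunit of the CGRP receptor, was at 187 UPM in 163 ND cells and 206 in 164 HFD cells (0.14, −0.05 to 0.32), and its partner Calcrl at 9.96 and 12.7. Nrp1 was at 46.3 and 45.6. The 13 target genes that the study named for the immune niche had 8 members at least 1.5-fold lower and 0 higher, with a median of −0.75. They share Jun, Junb, Jund, Fosb, Egr1, Klf6, Zfp36 and Dusp1 with the lists above and were selected on these samples, so they add no independent evidence of direction. Pim1, a kinase of the same list, was at 549 and 712 (0.38, 0.27 to 0.48).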

How the data were processed

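Periosteal cells were profiled by 10x Genomics 3′ single-cell RNA sequencing. The authors deposited 1 filtered matrix of raw UMI counts per diet, with 32285 genes, made with Cell Ranger 6.0.1 on mm10 per the submitters' processing notes. The matrices carry no map from cells to the 4 labelled replicates, so each diet was treated as 1 sample without replicates. Library totals were 48558889 UMIs in 6314 barcodes (ND) and 49940976 in 6636 (HFD).

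Cells with more than 500 and fewer than 8000 genes and under 20% mitochondrial UMIs were kept. Counts were summed over monocytes per library and expressed per 1000000 UMIs; ratios had 0.5 UMIs added, were described at 1.5-fold over genes with at least 100 UMIs, and carry exact conditional binomial intervals. Shares have exact Clopper-Pearson intervals. All intervals are at 95% and cover counting error only. For shares across cells, each cell was thinned to 2000 UMIs and shallower cells were left out, 0 of them monocytes.

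Comparison classes were Ly6c2-low (all clauses but Ly6c2), C1q macrophages (5 or more C1q UMIs with Csf1r) and progenitors (10 or more granule protease UMIs). The others were mature neutrophils (3 or more Retnlg UMIs, no Csf1r), B cells (2 or more Cd79a UMIs, no Csf1r) and T cells (2 or more Cd3e UMIs, no Csf1r). Each excluded some but not all markers of the other classes. Progenitors excluded only Cd3e and Cd79a, and C1q macrophages did not exclude Retnlg. Neutrophil markers summed to 105312 UPM in ND progenitors and 16788 in ND C1q macrophages. Scrublet called 7 ND and 4 HFD kept cells, too few to be taken as working, so doublets were not removed. Monocytes and the 42 gene lists were chosen with earlier results of these data known. Named genes were the rule and marker genes, the 12 leading genes, the 12 highest and 12 lowest ratios among genes with at least 200 UMIs, up to 4 most abundant and all 1.5-fold genes of each list, the 10 highest Fano factors, and receptors and targets the study named; genes outside these were chosen after their values were seen. Values of some of these genes are not reported here. Promoters came from RefSeq, GRCm38.p6. The ratio, its interval and the 1.5-fold call were tested on simulated sums with counting error alone, without spread between cells. The other steps had no such test. Analyses used scanpy 1.11.5, anndata 0.12.19, scipy 1.17.1, numpy 2.4.6, pandas 2.3.3 and matplotlib 3.10.9 under Python 3.11.15.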

Additional observations from a re-analysis of the deposited data

Results flagged for a closer look

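In 4 cases a list of markers of another cell type, with at least 4 genes measured in both classes, had median log2 ratios of HFD over ND past 1.5-fold and of opposite sign in monocytes and in a second class, with each diet a single library, and the difference was not tested. The neutrophil marker median was 0.79 in monocytes and −0.82 in B cells. In monocytes, 6 cells of each library held 81.9% (ND) and 93.5% (HFD) of this list. Without the top 5% of Scrublet scores the monocyte median was −0.58, of the same sign as in B cells. The erythroid marker median was 0.82 in monocytes, −1.66 in progenitors and −1.87 in B cells. The mesenchymal marker median was −2.90 in monocytes and 1.45 in B cells. The monocyte value rests on 2 ND cells that held 94.6% of the list; without monocytes carrying such RNA, Sparc (0.38), Col1a1 (1.01) and Col1a2 (1.50) had positive ratios.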

How the results depend on the processing

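No paired analysis was possible because each diet is 1 matrix that does not map cells to the numbered replicates. For the same reason no replicate could be left out. With granule proteases limited to 3 UMIs the ND share was 2.69% and the HFD share 2.70%, so that the direction of their difference was lost. When cells were thinned to 2000 UMIs before the rule, 17 ND and 26 HFD monocytes remained, with shares of 0.302% and 0.447%, and 5 genes were higher and 7 lower of 154 tested. Counts of genes higher and lower were 287 and 382 with at least 50 UMIs, 44 and 100 with at least 200 UMIs, and 14 and 67 at 2-fold. The other 63 values of the shares, gene counts and list count stayed within their counting interval or within 1.5 times. The neutrophil marker median turned to −0.58 without the top 5% of Scrublet scores, −0.10 as a mean over cells, −0.48 without monocytes with neutrophil RNA and −0.39 without the 3 top cells of each gene; of these, all but the mean over cells were chosen after seeing the data, as was leaving out monocytes with mesenchymal RNA. The interferon-stimulated median stayed between 0.77 and 1.07 in the 17 settings that gave one, AP-1 between −1.02 and −0.68, and heat shock between −0.93 and −0.42. The chemokine ligand median moved more, from −1.43 with cells thinned to 2000 UMIs to −0.17 with Ly6c2 at least 2 UMIs. Single-gene ratios after thinning rested on too few UMIs to be read. With 1 library per diet, mouse-to-mouse spread, capture and diet cannot be told apart.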
